A study of Mus musculus with 6 samples.

Results

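Genes of bone morphogenetic protein (BMP) signalling and the Id genes were read on 6 arrays of primary mouse aortic endothelial cell cultures. The set comprised 10 genes chosen by name, the ligands Bmp2 and Bmp4, the receptors Bmpr2 and Acvrl1, the secreted antagonist Grem1, the inhibitory Smads Smad6 and Smad7, and Id1, Id2 and Id3, out of 18193 genes named on the array. All probe sets whose array annotation gave one of these symbols were taken, 16 of the 45101 in the table. The brightest probe set of each of the 10 genes lay above the level filter, a log2 value of 7.72, and 14 of the 16 probe sets did so on their own. The 2 that did not, the dimmest probe sets of Bmpr2 and Id2, are given as values without a test.

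The cultures came from strain C57 mice, 3 from non-transgenic animals and 3 from transgenic animals carrying PPARG V290M, a dominant negative form of the human nuclear receptor PPARG, placed under the promoter of CDH5 (vascular endothelial cadherin). None of the cultures was treated. Each culture was grown from 2 mice and kept apart from the others, 5 cultures were set up per group and 3 per group were put on arrays, so that n = 3 in each group. The age and sex of the mice are not given in the sources used here, and these values do not show in which cells of a culture the human receptor was made.

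BMPs are secreted dimers of the TGF-beta superfamily that bring together type I and type II serine/threonine kinase receptors on the cell surface. The activated type I receptor phosphorylates Smad1, Smad5 and Smad9, which join Smad4, enter the nucleus and switch on targets, among which the Id genes and Smad6 are the most widely used readouts. Id proteins have a helix-loop-helix but no DNA-binding region, and they hold E proteins and other helix-loop-helix factors away from DNA. In endothelium the receptors ACVRL1 (ALK1) and BMPR2 are best known because their loss causes hereditary haemorrhagic telangiectasia and pulmonary arterial hypertension.

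RefSeq's promoter table (GRCm38.p6) held 6 of the 10 genes. The stretches of Id2 and Smad6 are shown because these were the members called when transgenic replicate 3 was left out, and that of Id3 because it is the other Id gene in the table. Each runs from 250 bases before the start used by the table to 4 bases after it, 5' to 3' on the strand of the gene, and capitals mark a searched motif, of which the stretch of Id3 held none.
Id2, chr12:25096089-25096342, minus strand: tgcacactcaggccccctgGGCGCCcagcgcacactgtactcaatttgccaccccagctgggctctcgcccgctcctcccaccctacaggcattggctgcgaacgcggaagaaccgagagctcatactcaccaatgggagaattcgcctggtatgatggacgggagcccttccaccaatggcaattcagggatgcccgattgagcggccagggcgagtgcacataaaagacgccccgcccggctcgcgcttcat
Id3, chr4:136143572-136143825, plus strand: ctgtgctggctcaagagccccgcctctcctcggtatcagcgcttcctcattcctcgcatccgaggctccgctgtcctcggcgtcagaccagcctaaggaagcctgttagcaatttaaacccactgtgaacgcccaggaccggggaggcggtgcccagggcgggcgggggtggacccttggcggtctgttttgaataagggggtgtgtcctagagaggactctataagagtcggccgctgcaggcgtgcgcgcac
Smad6, chr9:64022056-64022309, minus strand: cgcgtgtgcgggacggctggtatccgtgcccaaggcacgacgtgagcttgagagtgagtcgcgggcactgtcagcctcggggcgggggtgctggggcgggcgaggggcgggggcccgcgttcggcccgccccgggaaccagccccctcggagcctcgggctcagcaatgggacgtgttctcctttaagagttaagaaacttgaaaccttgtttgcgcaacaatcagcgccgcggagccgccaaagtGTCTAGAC

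In Id2 the capitals mark GGCGCC, a palindrome that occurs in GC-rich elements bound by Smad1 and Smad5, which began 231 bases before the start. Over the whole windows of 300 bases it was present in 3 of the 6 member promoters (Bmpr2, Grem1 and Id2) and in 11.9% of all 32851. In Smad6 the capitals mark GTCTAGAC, the palindromic Smad-binding element, which lay across the start, from 4 bases before it to 4 bases after it. This motif was added after the promoters had been read, so its presence in Smad6 is not a test. The 0.213% of all promoters that held it gives no measure of enrichment. CAGACA, which holds the short Smad-binding sequence, was in 0 of the 6 member promoters (21.0% of all), and AGGTCA, a core element bound by nuclear receptors such as PPARG, was in 1, Grem1 (16.3% of all). All motifs were searched on both strands, and these matches describe the letters of the windows only.

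Values are given as log2(signal + 16), and differences are transgenic minus non-transgenic on that scale, where the added 16 makes the change of a dim gene look smaller. Transgenic replicate 3 stood apart from its group. Its rank correlation across genes was 0.967 to 0.974 with the non-transgenic arrays and 0.927 and 0.887 with transgenic replicates 1 and 2, so differences are given with and without it. The array was set apart on the same values that are compared. Leaving it out was therefore apt to widen group differences, and p values without it are descriptive and too small to read as tests. Of 20 endothelial markers on the array only 5 to 7 reached the level filter on any array, and Cdh5 (group means 6.97 and 6.09), Pecam1 (5.67 and 6.14) and Nos3 (6.80 and 7.42) did not, while 14 or 15 of 15 fibroblast markers did. The 6 endothelial markers that passed the filter on their mean (Tek, Flt1, Emcn, Egfl7, Ecscr and Plvap) all lay higher in the transgenic group, with a median difference of 0.83. The markers under the filter went both ways, with Cdh5 at -0.88 and Esam at -0.75 but Pecam1 at 0.46 and Nos3 at 0.62. Without transgenic replicate 3 limma called Flt1 and Ecscr of the 6, both higher (adjusted p = 0.0203 and 0.00449), while Tek was at 0.020. Without that array limma called 14.7% of all genes, 6.88% higher and 7.83% lower. The part of the endothelial markers in the results below was not tested. For Gapdh, the array's control probe sets gave a 3' to 5' ratio of 1.59 ± 0.11 (SD, n = 3) without the transgene and of 1.33 ± 0.12 (SD, n = 3) with it. The groups did not overlap, and the two-sided p of 0.1 by exact permutation is the lowest possible for 3 against 3. For beta-actin the ratio was 2.17, 2.00 and 1.83 without the transgene and 1.74, 1.40 and 2.21 with it (two-sided p = 0.5 by exact permutation). Transgenic replicates 1 and 2 were the lowest arrays for this ratio and replicate 3 the highest. The part of the ratio in the results below was not tested. The median signal was 219.9 to 222.9 on the non-transgenic and 173.0 to 186.1 on the transgenic arrays.

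The comparison asked how the members differed between transgenic and non-transgenic cultures. The 3 Id genes lay lower in the transgenic group, by 1.65-fold for Id2, 1.37-fold for Id1 and 1.19-fold for Id3, while Smad7, which blocks the receptors and recruits ubiquitin ligases to them, lay 1.41-fold higher. No member passed the threshold. limma called 0 of the 10 at a Benjamini-Hochberg adjusted p of 0.05, as it called 0 of all 11208 genes tested (0%). An unadjusted p under 0.05 was found for 3 members, Id1 and Id2 lower and Smad7 higher, against 11.5% of all genes. Without transgenic replicate 3 limma called 2 members, Id2 and Smad6, both lower, while it called 14.7% of all genes, 6.88% higher and 7.83% lower. With array weights estimated by limma, 6 members were called, all lower (Id1, Id2, Id3, Bmp4, Bmpr2 and Smad6), as were 49.1% of all genes in either direction and 26.3% in the lower one. The weights, estimated from the same values, were 4.65 for non-transgenic replicate 2 and 5.25 for transgenic replicate 1. The other arrays had 0.177 to 1.2, so these calls rested mainly on 1 array per group and are descriptive. In cultures fewer cells of a type and less RNA per cell cannot be told apart.

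**Figure D1:**
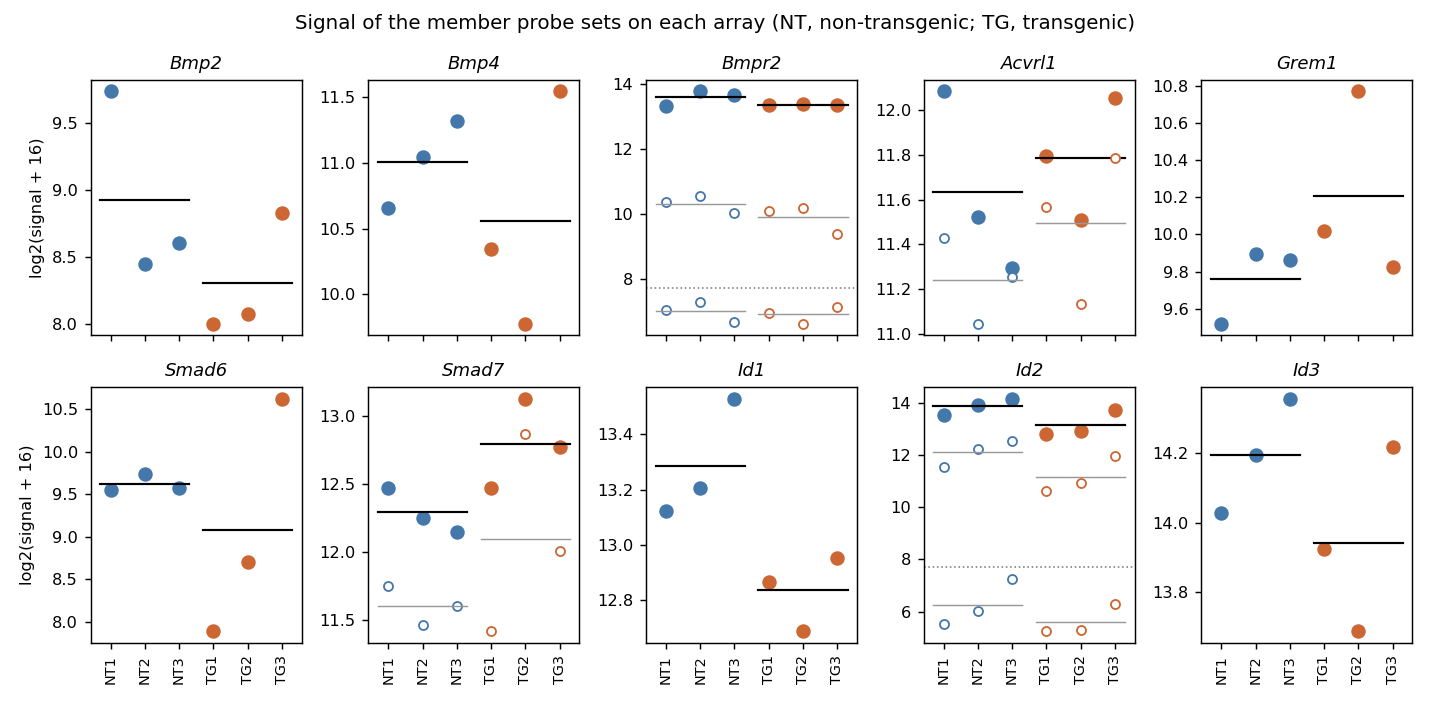
Log2(signal + 16) of the 16 probe sets on the 6 arrays (NT, non-transgenic; TG, transgenic), each panel with its own vertical axis. Filled points are the brightest probe set of a gene, open points its other probe sets, bars the group means and the dotted line the level filter at 7.72. The Id1 groups do not overlap, and transgenic replicate 3 is the highest array for Bmp4 and Smad6.

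Id1, the best-known transcriptional target of BMP receptors in endothelium, measured 13.12, 13.20 and 13.53 without the transgene and 12.86, 12.69 and 12.95 with it. These correspond to signals of 8894, 9425 and 11804 against 7442, 6587 and 7911. Every transgenic array, also that of replicate 3, was lower than the lowest non-transgenic one. Id1 was the 1 member of 10 whose groups did not overlap, against 16.1% of all genes in either direction and 6.72% in this one. The difference was -0.45 ± 0.16 (SE, n = 3 per group, limma adjusted p = 0.428) with a 95% interval of -0.81 to -0.09. It was -0.51 without transgenic replicate 3 (limma adjusted p = 0.0703).

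Id2, another inhibitor of helix-loop-helix factors, had the largest difference of the Id members. It measured 13.54, 13.92 and 14.17 without the transgene and 12.80, 12.94 and 13.71 with it. Transgenic replicates 1 and 2 lay below every non-transgenic culture, and replicate 3 lay inside the non-transgenic range. The difference was -0.73 ± 0.26 (SE, limma adjusted p = 0.428, 95% interval -1.33 to -0.12), and it was -1.01 ± 0.18 without transgenic replicate 3 (limma adjusted p = 0.0138). Its second probe set read 11.53, 12.24 and 12.54 against 10.62, 10.91 and 11.96, a difference of -0.94 ± 0.39 (SE). The dimmest one read 5.51, 6.01 and 7.26 against 5.26, 5.31 and 6.28. On each of the 3 probe sets transgenic replicates 1 and 2 were the lowest arrays and replicate 3 lay between non-transgenic replicates.

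Id3 measured 14.03, 14.20 and 14.36 without the transgene and 13.92, 13.69 and 14.22 with it, so that its groups overlapped through replicate 3. Its difference of -0.25 ± 0.16 (SE, limma adjusted p = 0.527, 95% interval -0.62 to 0.11) was within the spread between cultures, and it was -0.39 without transgenic replicate 3 (limma adjusted p = 0.088) and -0.12 without transgenic replicate 2. The Id genes shared an order among the arrays. In all 3 of them non-transgenic replicate 3 was the highest array, non-transgenic replicate 1 the lowest of its group, and transgenic replicates 1 and 2 the lowest of all 6.

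Id4, the remaining member of the Id family, was not among the 10 genes. Its values were 11.81, 12.19 and 11.99 on the non-transgenic arrays, then 8.50, 8.80 and 12.26 on the transgenic arrays. Transgenic replicates 1 and 2 lay far below all other arrays and replicate 3 was the highest array. Its difference was -2.14 ± 0.89 (SE, limma adjusted p = 0.428) and -3.35 ± 0.22 without transgenic replicate 3 (limma adjusted p = 0.000786).

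**Figure D2:**
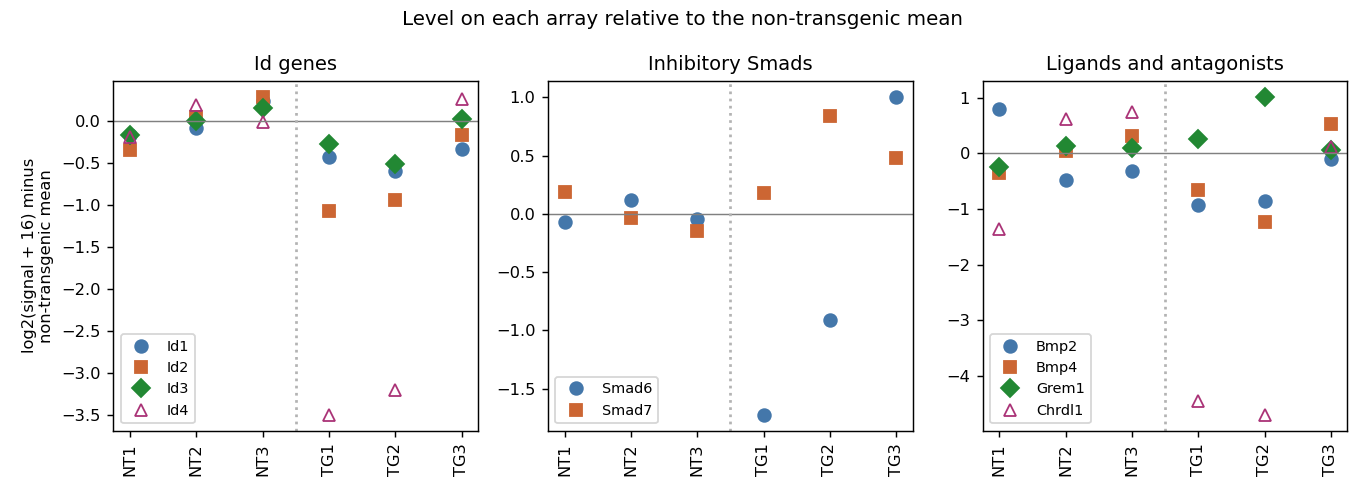
Log2(signal + 16) on each array minus the mean of the 3 non-transgenic arrays, for the Id genes, the inhibitory Smads, and ligands with extracellular antagonists. Open triangles are Id4 and Chrdl1, which are not among the 10 genes. Id4 is at 8.50 and 8.80 in transgenic replicates 1 and 2 and at 12.26 in replicate 3, and Smad6 spreads most within the transgenic group among the members.

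Smad6, which competes with Smad4 for Smad1 and is itself a target of BMP receptors, measured 9.54, 9.74 and 9.57 without the transgene and 7.89, 8.71 and 10.62 with it. In signal these were 730.9, 838.6 and 746.4 against 221.9, 402.5 and 1560.8. Transgenic replicates 1 and 2 lay below the non-transgenic range and replicate 3 lay above it, and the transgenic SD of 1.40 was the largest of the 10 members, against 0.105 in the non-transgenic group. The difference over all arrays, -0.54 ± 0.62 (SE, limma adjusted p = 0.728, 95% interval -1.99 to 0.90), was within the spread between cultures. It was -1.32 ± 0.31 without transgenic replicate 3 (limma adjusted p = 0.0282) and 0.047 without transgenic replicate 1.

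Smad7 had 2 probe sets. The brighter measured 12.48, 12.26 and 12.15 without the transgene and 12.48, 13.13 and 12.78 with it. The groups overlapped narrowly, transgenic replicate 1 being at 12.4753 and non-transgenic replicate 1 at 12.4770, and with each array centred on its median they no longer overlapped. The difference was 0.50 ± 0.20 (SE, limma adjusted p = 0.428, 95% interval 0.04 to 0.96), and 0.51 without transgenic replicate 3 (limma adjusted p = 0.149). This probe set carries the suffix that Affymetrix gives where some probes also match transcripts of other genes. The other probe set, without that suffix, read 11.75, 11.47 and 11.60 against 11.42, 12.87 and 12.01, a difference of 0.49 ± 0.34 (SE), with transgenic replicate 1 as its lowest array. Both inhibitory Smads were thus above the non-transgenic range in transgenic replicate 3, and in replicates 1 and 2 they lay apart from each other.

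Both ligands were lowest in transgenic replicates 1 and 2. Bmp2, a ligand with high affinity for type I receptors and a driver of vascular calcification, measured 9.73, 8.45 and 8.60 without the transgene and 8.004, 8.08 and 8.83 with it. Non-transgenic replicate 1 stood above the other 5 arrays. The difference of -0.63 ± 0.42 (SE, limma adjusted p = 0.551, 95% interval -1.61 to 0.36) was -0.22 without that culture and -0.89 without transgenic replicate 3 (limma adjusted p = 0.178). The mean of the 8 adipocyte markers on the array was also highest in non-transgenic replicate 1, at 12.02, against 10.35 and 10.24 in the other replicates of that group and 9.29, 7.91 and 10.11 with the transgene, and their part in the result was not tested.

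Bmp4, a ligand made by endothelium under disturbed flow, measured 10.66, 11.04 and 11.32 without the transgene and 10.34, 9.78 and 11.55 with it. Transgenic replicates 1 and 2 were the lowest arrays and replicate 3 the highest. The difference was -0.45 ± 0.44 (SE, limma adjusted p = 0.675, 95% interval -1.47 to 0.56). It was -0.95 ± 0.28 without transgenic replicate 3 (limma adjusted p = 0.0568) and -0.064 without transgenic replicate 2.

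Neither receptor passed the test over all 6 arrays. Bmpr2, the type II receptor for BMPs, measured 13.33, 13.77 and 13.67 without the transgene and 13.35, 13.40 and 13.34 with it on its brightest probe set. The transgenic cultures lay within 0.06 of one another, inside the range that non-transgenic replicate 1 opened at its lower end. The difference was -0.23 ± 0.14 (SE, limma adjusted p = 0.52, 95% interval -0.56 to 0.10). It was -0.22 without transgenic replicate 3 (limma adjusted p = 0.352), -0.37 with array weights (limma adjusted p = 0.00709) and -0.49 after adjusting for the Gapdh ratio (limma adjusted p = 0.716). The weighted fit rested mainly on non-transgenic replicate 2 and transgenic replicate 1, so its p is descriptive. The second probe set differed by -0.43 ± 0.29 (SE) with transgenic replicate 3 lowest at 9.37, and the dimmest one read 7.04, 7.28 and 6.68 against 6.95, 6.61 and 7.14.

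Acvrl1, the type I receptor ALK1 of BMP9 and BMP10 that is found mainly in endothelium, measured 12.08, 11.52 and 11.29 without the transgene and 11.80, 11.51 and 12.06 with it. The groups overlapped throughout, with a difference of 0.15 ± 0.25 (SE, limma adjusted p = 0.813, 95% interval -0.44 to 0.74). It was 0.019 without transgenic replicate 3 (limma adjusted p = 0.97) and 0.91 after adjusting for the Gapdh ratio (limma adjusted p = 0.716, unadjusted p = 0.0127), which did not overlap between the groups. Its second probe set differed by 0.25 ± 0.23 (SE). Grem1, gremlin 1, which binds BMP2 and BMP4 outside the cell and keeps them from their receptors, measured 9.52, 9.89 and 9.86 without the transgene and 10.02, 10.77 and 9.83 with it. Transgenic replicates 1 and 2 lay above every non-transgenic culture and replicate 3 did not. The difference was 0.45 ± 0.31 (SE, limma adjusted p = 0.555, 95% interval -0.26 to 1.16), 0.64 without transgenic replicate 3 (limma adjusted p = 0.169) and 0.16 without transgenic replicate 2. Transgenic replicate 2, highest for Grem1 and Smad7, was also the culture with 10 of 15 markers of leukocytes and macrophages past the filter, against 4 or 5 on each other array, and their part in these values was not tested.

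**Figure D3:**
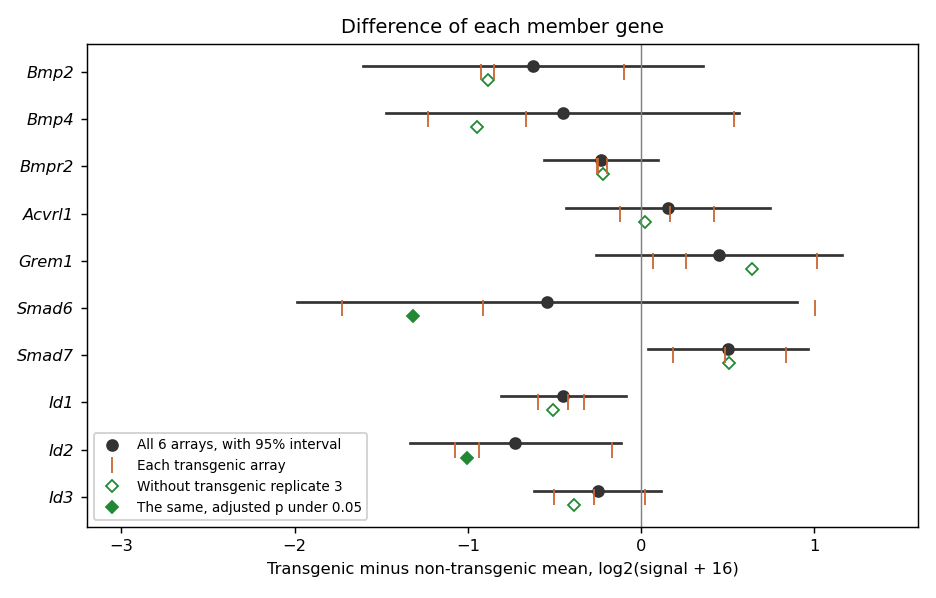
Transgenic minus non-transgenic difference of the brightest probe set of each member on the log2(signal + 16) scale. Black points and lines are the limma estimate and 95% interval over 6 arrays, ticks each transgenic array minus the non-transgenic mean, and diamonds the estimate without transgenic replicate 3, filled where the adjusted p was under 0.05. Intervals of Id1, Id2 and Smad7 leave out 0, while none of the 10 passed after adjustment over all genes.

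As a set, 7 of the 10 members lay lower and 3 higher, with a median difference of -0.35, beside a median of -0.021 over all genes tested, of which 52.5% lay lower. The range of the non-transgenic cultures took in transgenic replicate 3 for 6 of the 10 members (39.2% of all genes), replicate 1 for 3 (30.3%) and replicate 2 for 2 (25.4%). Without transgenic replicate 3 the median of the members was -0.45 (-0.058 over all genes). The groups then did not overlap for 7 members, 6 lower (27.4% of all genes) and 1 higher (22.8%), against 50.2% of all genes in either direction. The adipocyte list moved with the same arrays, with 4 and 3 of its 8 markers above the filter in transgenic replicates 1 and 2 and 6 or 7 on every other array, and its part in the members' values was not tested.

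Of 61 other genes of the pathway, listed by role, 56 were on the array and 40 passed the level filter. limma called 0 of the 40, and 9 had an unadjusted p under 0.05, 6 of them lower (5.02% of all genes were lower at that level) and 3 higher (6.47%). The groups did not overlap for 6 of the 40, 5 lower and 1 higher, close to the 16.1% of all genes in either direction. Each gene is given by its brightest probe set only, of 6 for Bmpr1a, 2 for Acvr2a, 3 for Id4 and 4 for Chrdl1. The median difference of the 40 was -0.22, and 28 lay lower. Among 8 tested receptors and coreceptors 7 lay lower. The type I receptor Bmpr1a was at 12.82, 13.33 and 13.25 against 12.46, 12.54 and 12.72, a difference of -0.56 ± 0.17 (SE), and the type II receptor Acvr2a at 13.41, 13.62 and 13.52 against 13.15, 13.04 and 12.90, a difference of -0.49 ± 0.13 (limma adjusted p = 0.428 for both). For neither gene did the groups overlap, and without transgenic replicate 3 the differences were -0.63 and -0.42 (limma adjusted p = 0.0524 and 0.0601). The type I receptor Acvr1 differed by -0.23, the pseudoreceptor Bambi by -0.52 and endoglin, Eng, the coreceptor of Acvrl1 in endothelium, by 0.12 (limma adjusted p = 0.645, 0.519 and 0.861). They were -0.40, -0.85 and -0.027 without transgenic replicate 3, so that Eng changed sign.

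**Figure D4:**
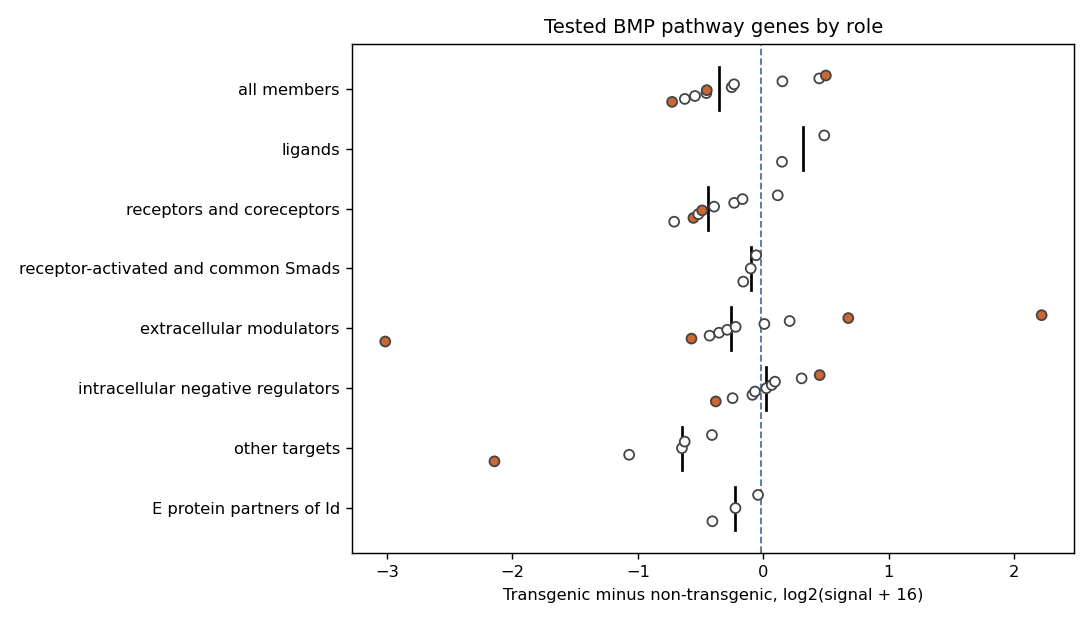
Transgenic minus non-transgenic difference, log2(signal + 16), of the 10 members and of the 40 other tested pathway genes by role. Each point is a gene, filled where the unadjusted p was under 0.05, black bars are list medians and the dashed line is the median of all genes tested, -0.021. Every tested gene lies lower among the receptor-activated and common Smads, the other targets and the E protein partners. The tested ligands outside the 10 members lie higher.

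The Smads that carry the signal showed small differences, -0.10 for Smad1, -0.06 for Smad5 and -0.16 ± 0.13 (SE) for Smad4, the last with the smallest p of its list (limma adjusted p = 0.609), while Smad9 lay under the filter. These were -0.068, 0.039 and -0.26 without transgenic replicate 3. The other tested ligands were Bmp6, at 0.15, and Bmp8a, at 0.49 ± 0.31 (SE, limma adjusted p = 0.531). Bmp6 changed sign, to -0.15, when transgenic replicate 3 was left out, and Bmp8a was then at 0.35. Of 10 tested extracellular modulators 4 lay higher and 6 lower (3 and 7 after quantile normalization, through Nbl1). The higher ones, named after their values were seen, were the tolloid proteases Tll1, at 2.22 ± 0.86 (SE), and Bmp1, at 0.68 ± 0.28, besides Fstl1 at 0.21 and Nbl1 at 0.01 (limma adjusted p = 0.428 for the first pair). Their differences without transgenic replicate 3 were 3.07, 0.53, 0.43 and -0.18. Among the lower ones the activin and BMP binder follistatin, Fst, was at 14.23, 14.39 and 14.56 against 13.62, 13.66 and 14.18, a difference of -0.57 ± 0.17 (SE, limma adjusted p = 0.428), with no overlap. The endothelial BMP binder Bmper, at -0.22, had no overlap either, where 16.1% of all genes had none. The chordin partner Twsg1 differed by -0.29 and chordin, Chrd, by -0.35. Without transgenic replicate 3 Fst, Bmper, Twsg1 and Chrd were at -0.75, -0.27, -0.37 and -0.65, while noggin, Nog, lay under the filter. Chordin-like 1, Chrdl1, named after its values were seen, was at 10.71, 12.70 and 12.82 against 7.62, 7.38 and 12.18, with transgenic replicates 1 and 2 under the level filter and replicate 3 inside the non-transgenic range.

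Among 9 intracellular negative regulators 5 lay higher and 4 lower (4 and 5 after quantile normalization of the arrays, through Tob1). Tob2, a relative of the Smad inhibitor Tob1, had the smallest p, at -0.38 ± 0.12 (SE, limma adjusted p = 0.428), and the ubiquitin ligase Smurf1 differed by 0.31 (-0.45 and 0.18 without transgenic replicate 3). The probe set of Tob2, the brightest of 5, carries the same suffix as the brighter one of Smad7. All 5 other tested targets lay lower, with a median of -0.65, Id4 having the smallest p, and Hey1 lay under the filter. The 3 E proteins that Id proteins bind had a median of -0.22. Tcf4, with the smallest p, was at -0.22 ± 0.14 (SE, limma adjusted p = 0.52). Tcf3 was at -0.40 ± 0.28 and Tcf12, close to no difference, at -0.04 ± 0.14 (limma adjusted p = 0.555 and 0.915). Without transgenic replicate 3 Tcf4, Tcf3 and Tcf12 were at -0.14, -0.53 and -0.003. Without transgenic replicate 3 limma called 10 of the 40 pathway genes (14.7% of all genes), 9 lower and 1 higher. The lower ones were Id4, Atoh8, Chrdl1, Fst, Dand5, Neo1, Bambi, Tob2 and Ctdsp1, and the higher one was Tll1, a protease of the tolloid family that cleaves chordin. Tll1 was at 9.12, 7.69 and 7.01 against 10.18, 11.84 and 8.46.

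Likeness to Id1, Bmp4 and Grem1 was measured by the mean absolute distance over the 6 arrays between values centred on their own mean. Compared were genes whose range was at least that of the member divided by 2, 9639 for Id1, 5197 for Bmp4 and 7513 for Grem1. Most like Id1 were the tested genes Cdkn1b (0.0503), Klf9 (0.0535) and Oxnad1 (0.0551). Nearest to Bmp4 were Pgm5 (0.0938), Htra1 (0.0939) and Smarcd3 (0.0942), and nearest to Grem1 were Sass6 (0.0637), Ahi1 (0.0783) and Faap24 (0.0814). Cdkn1b, which encodes the cyclin-dependent kinase inhibitor p27, was at 14.06, 14.23 and 14.51 against 13.91, 13.55 and 13.91. It was picked by its likeness to Id1, so the lack of overlap between its groups follows largely from that choice.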

How the data were processed

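Total RNA of 6 cultures was amplified in 2 steps from about 50 ng, labelled with biotin and hybridized to Affymetrix mouse genome arrays, per the labels' protocols. The intensities that the authors deposited, 1 value for each probe set on each array, are linear (0.1 to 67821.8), and the submitters' processing notes name MAS5 without a version. Their scaling was kept, and no detection calls were used. Gene symbols came from the array annotation (34945 probe sets with 1 gene, 932 with several, not named, 9160 with none listed), updated by identifier for 34741 with RefSeq GRCm38.p6.

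Values were log2(intensity + 16). Of several probe sets of a gene the brightest over the 6 arrays stood for it, and 11208 genes were tested, those with a mean at or above the median probe set, controls aside (7.72). Groups were compared with limma 3.58.1 in R 4.3.3 (lmFit, and eBayes with a variance trend, two-sided) with Benjamini-Hochberg adjustment over all genes. Errors are limma's moderated SE. A fit of all 19750 probe sets above the filter gave the values of further probe sets. The number of arrays limits the precision.

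The 10 members and the gene lists were chosen with earlier results of these data known. Named besides the members were pathway genes fixed by name, the gene with the smallest p in each role list and the nearest patterns of 3 members. Chrdl1, Bmp1, Fstl1, Nbl1, Tll1, Atoh8, Dand5, Neo1, Ctdsp1, Tob1, Tcf3, Tcf12 and the marker Esam were named after their values were seen. Alternatives were other pseudocounts, filters, scalings and variance models, array weights, the mean of all probe sets, control-ratio covariates, the replicate number as a block, and each array left out.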

Additional observations from a re-analysis of the deposited data

How the results depend on the processing

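Under 18 alternatives the 10 members gave 177 values, of which 171 kept the direction of the reported difference, and 5 members (Bmpr2, Smad7, Id1, Id2 and Id3) kept it in all of theirs. With the Gapdh 3' to 5' ratio as a covariate, which moved the median of all genes by 0.144, the differences of Bmp2 (0.48), Bmp4 (0.24), Grem1 (-0.35) and Smad6 (0.40) changed sign, and that of Acvrl1 was 0.91. With each array left out in turn, that of Smad6 ran from -1.32 (without transgenic replicate 3) to 0.047 (without transgenic replicate 1) and that of Acvrl1 from -0.016 (without non-transgenic replicate 3) to 0.38 (without non-transgenic replicate 1). The cause of these changes was not tested. With limma's array weights 5504 genes (49.1%), 9971 probe sets and 6 of the 10 members (Id1, Id2, Id3, Bmp4, Bmpr2 and Smad6) were called. At an unadjusted p under 0.05 there were 28 of the 40 pathway genes, beside 2969 higher and 3385 lower of all 11208 genes. That fit gave non-transgenic replicate 2 a weight of 4.65, transgenic replicate 1 one of 5.25 and transgenic replicate 3 one of 0.177. limma reported that its estimate of the weights stopped before convergence. Leaving out each array in turn gave 0 to 1649 genes and 0 to 3196 probe sets called and 3 to 19 pathway genes at an unadjusted p under 0.05, against 9 with all arrays. Each upper end came without transgenic replicate 3, and the lowest pathway count without non-transgenic replicate 2. Of all 11208 genes, 1591 higher and 2052 lower reached that level without transgenic replicate 3. Without non-transgenic replicate 2 it was 241 higher and 185 lower. With the mean of all probe sets of a gene 7 of the 40 pathway genes reached that level, beside 634 higher and 789 lower of 10342 genes. With the replicate number as a block (replicate block) 0 genes were called and 603 genes higher and 514 lower had an unadjusted p under 0.05. The block lowered the SE of Id2 from 0.262 to 0.172 (limma adjusted p = 0.459) and raised that of Smad7 from 0.200 to 0.230. Deviations of same-numbered cultures correlated at 0.042, -0.278 and -0.034. No label says that a number is shared between groups, and these correlations cannot show whether same-numbered cultures were handled together. The other alternatives called 0 genes. Groups that did not overlap were found for 7 members without transgenic replicate 3, where 50.2% of all genes had no overlap. With all arrays it was 1 member and 16.1% of all genes. The member count also rose under some other alternatives, without a share of all genes to set beside it. With 3 arrays a group the 95% intervals of the members show the sizes of difference these data allow.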
